A study of Mus musculus with 16 samples.

Results

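Fatty acid oxidation and ketogenesis were followed in mouse liver through a set of 35 genes chosen by symbol, which cover fatty acid uptake and activation, the carnitine shuttle, the mitochondrial and peroxisomal beta-oxidation enzymes, and target genes of the nuclear receptor PPARA. A member was read from the array probe annotated with its symbol, and where several probes were listed the one with the highest mean over 16 arrays was used. Of the 35 genes, 32 had a listed probe and 28 were measured, which is 28 of 11338 features tested on the array. The measured members divided into 17 mitochondrial genes, 7 peroxisomal genes and 4 that act elsewhere or in several places. No probe carried the symbols Hadha, Acsl1 or Cyp4a10, which were not analysed here. Cpt1a, Crot, Fabp1 and Vnn1 had a probe that was detected on 0 of 16 arrays, with raw intensities of 133 to 177, 136 to 181, 119 to 160 and 128 to 156. These 4 probes were not above background on any array and were not tested, which gives no level for the genes, since whether the annotated probes read them was not checked. Among them is Cpt1a, which controls the entry of long-chain fatty acids into mitochondria. Cyp4a14 was detected on 15 arrays, all but replicate 2 of the knockout with mineral oil, and the other 27 members were detected on all 16, so no measured member passed the detection filter through a single group.

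The livers came from male FVB mice aged 10 weeks that were either wild-type or labelled LKB1 lox/lox, and the titles describe the second genotype as lacking LKB in the liver only. LKB1 is encoded by Stk11 and phosphorylates AMPK, the AMP-activated kinase that senses cellular energy. Mice of both genotypes had received carbon tetrachloride (CCl4, spelled CCL4 in the labels), a liver toxicant, or mineral oil, its control, or else AICAR, which cells phosphorylate to an AMP mimic that activates AMPK, or saline, its control. The sources used here name no Cre driver, dose or time. Each of the 8 groups had 2 arrays, called biological replicates in the labels but tied to no animal, so a p-value reflects only how far these samples differ, which may be technical. The 2 knockout saline arrays differed by no more than measurement noise and were counted as 1 sample in every test, which left 15 samples.

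Beta-oxidation shortens fatty acids by repeated rounds of dehydrogenation, hydration, a second dehydrogenation and thiolysis. Mitochondria oxidise the bulk of long-chain and medium-chain fatty acids and pass electrons on through the electron transfer flavoprotein, and the liver turns the resulting acetyl-CoA into ketone bodies during fasting. Peroxisomes start on very long-chain and branched fatty acids with a parallel set of enzymes, and in rodents PPARA agonists raise many of the peroxisomal genes and increase the number of peroxisomes. AMPK promotes entry of fatty acids into mitochondria by relieving the block on the carnitine shuttle.

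Values are log2 intensities after background correction and quantile normalization, and a difference of 1 on that scale is a doubling. A gene is said to be called when its limma p, adjusted by Benjamini and Hochberg over all 11338 features, was under 0.05. Differences are given on the log2 scale as estimate ± standard error (SE), with 2 samples per group and 1 for knockout saline. Statements that the genotypes overlapped or were apart under a single agent describe 2 arrays against 2 and are not tests. With saline the 2 knockout arrays stand for 1 sample in such statements, so being apart there says less than under the other agents. The share of all features that were apart under a single agent was not counted. Arrays had a median raw signal of 172.4 to 213.7 and detected 12233 to 13730 of 25697 probes. Stk11 was 10.04 to 10.39 in wild-type and 8.94 to 9.54 in knockout livers, with no overlap, and was lower by 2.05-fold in the knockout over all 4 agents (log2 difference -1.04 ± 0.10, adjusted p 0.000148). Whether its probe reads the deleted exons was not checked here. The hepatocyte transcripts Ttr, Apoa1, Serpina1a and Cps1 reached a percentile of at least 97.9 among the 11338 tested features on all 16 arrays. The Alb probe, in contrast, was detected on 13 arrays and its lowest percentile was 7.82. In whole liver, fewer cells of a type and less RNA per cell cannot be told apart. Mean levels of 5 hepatocyte markers spanned 13.24 to 13.88 in wild-type and 13.29 to 13.71 in knockout arrays. Over all 4 agents the stellate cell markers were lower in the knockout in 7 of 7 cases (median -0.29, 1 called), the sinusoidal endothelial markers in 5 of 6 (median -0.20, 2 called) and the Kupffer cell markers in 4 of 4 (median -0.22, 0 called by limma). T and B cell markers were lower in 3 of 3 (median -0.22) and neutrophil markers in 3 of 5 (median -0.02), while cholangiocyte and adipocyte markers were higher in 2 of 2 each (medians 0.26 and 0.10). The part of these cells in the differences described here was not tested.

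Of all comparisons made, 1 comparison of the genotypes gave calls among the members, for 2 peroxisomal genes of 28 members (7.14%), a share near the 9.26% of all features called there. Pex11a, which drives the elongation and division of peroxisomes, and Acaa1a, a peroxisomal thiolase that carries out the last step of each oxidation round, fell in the knockout over the 4 agents. All 7 peroxisomal members had a lower estimate in the knockout in that comparison, with a median log2 difference of -0.26. The 17 mitochondrial members were divided, 9 lower and 8 higher, with a median of -0.02, close to the median of all features. With median centring 7 of 7 peroxisomal members were again lower, and 7 of 17 mitochondrial members. That comparison, the knockout minus wild-type difference averaged over the 4 agents, was added after the data had been seen. It shares all its arrays with the comparisons within single agents given further on.

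Pex11a in the wild-type was 12.53 and 12.34 with oil, 12.84 and 12.40 with saline, 12.66 and 12.55 with CCl4 and 12.49 and 12.15 with AICAR. In the knockout, Pex11a was 11.46 and 11.51 with oil, 11.93 and 12.07 with saline, 11.43 and 12.31 with CCl4 and 11.67 and 11.95 with AICAR. Under each agent both knockout arrays were below both wild-type arrays, while across agents knockout CCl4 replicate 2 lay above wild-type AICAR replicate 2. Over all 4 agents the log2 difference was -0.70 ± 0.15, adjusted p 0.0149, a 95% confidence interval of -1.03 to -0.37, or 1.63-fold lower. The call held in all 26 alternatives tried, with adjusted p between 0.00317 and 0.0438, and the other Pex11a probes gave -0.58 and -0.69.

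Acaa1a in the wild-type was 14.59 and 14.44 with oil, 14.64 and 14.48 with saline, 14.30 and 14.52 with CCl4 and 14.43 and 14.26 with AICAR. In the knockout, Acaa1a was 13.97 and 14.01 with oil, 14.25 and 14.20 with saline, 13.51 and 14.12 with CCl4 and 13.85 and 13.72 with AICAR. The lowest wild-type array, AICAR replicate 2, and the highest knockout array, saline replicate 1, stood at 14.26 and 14.25, so the genotypes did not overlap but met. Acaa1a was 1 of 28 members with no overlap between 8 wild-type and 7 knockout samples on the lower side, where 1.13% of all features had none, and 0 of 28 members had none on the higher side, against 1.31% of all features. The difference over all 4 agents was -0.50 ± 0.12, adjusted p 0.0212, or 1.42-fold lower. The call was lost with median centring, at -0.37 and an adjusted p of 0.12. It was also lost without wild-type CCl4 replicate 2 (-0.48, adjusted p 0.0562), wild-type saline replicate 1 (-0.48, adjusted p 0.0558) or wild-type AICAR replicate 1 (-0.48, adjusted p 0.0594). The array carries a single probe for Acaa1a and 1 for its closely related copy Acaa1b, and how far each probe reads the other transcript was not tested.

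The promoters of both genes are shown because these were the members called, with Echs1 added as a mitochondrial member whose estimate had the opposite sign and whose promoter holds a match to the PPARA element. The sequences are RefSeq's for build GRCm38.p6, from 250 bases before to 50 bases after the start site, and capitals mark a match to the PPARA element, a direct repeat of AGGTCA with any 1 base between the copies, allowing at most 2 mismatches among its 12 set letters, searched on both strands. Pex11a lies at chr7:79743082-79743381 on the minus strand, Acaa1a at chr9:119341044-119341343 on the plus strand and Echs1 at chr7:140116372-140116671 on the minus strand.
Pex11a: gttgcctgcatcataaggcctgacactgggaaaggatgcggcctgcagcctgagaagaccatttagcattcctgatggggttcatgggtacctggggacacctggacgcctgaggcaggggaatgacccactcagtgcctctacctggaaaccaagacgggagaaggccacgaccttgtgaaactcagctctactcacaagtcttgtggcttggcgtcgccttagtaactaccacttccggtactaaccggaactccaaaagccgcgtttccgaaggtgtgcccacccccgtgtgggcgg
Acaa1a: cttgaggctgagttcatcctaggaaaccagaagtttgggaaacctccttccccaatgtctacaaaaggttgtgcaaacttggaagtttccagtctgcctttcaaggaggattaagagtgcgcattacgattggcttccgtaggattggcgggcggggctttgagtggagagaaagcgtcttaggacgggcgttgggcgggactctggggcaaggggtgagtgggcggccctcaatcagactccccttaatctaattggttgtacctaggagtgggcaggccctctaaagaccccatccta
Echs1: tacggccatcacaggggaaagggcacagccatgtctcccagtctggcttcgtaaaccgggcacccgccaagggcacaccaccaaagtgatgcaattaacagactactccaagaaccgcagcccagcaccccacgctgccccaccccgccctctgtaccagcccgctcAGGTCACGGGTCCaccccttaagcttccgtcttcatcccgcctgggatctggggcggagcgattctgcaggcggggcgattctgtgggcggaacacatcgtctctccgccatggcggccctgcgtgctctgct
The Echs1 match AGGTCACGGGTCC begins 83 bases before the start site, and neither other window holds a match. Such a match occurred in 1268 of 32851 promoters of the table, 3.86%. Of the measured members with a promoter there, 3 of 15 mitochondrial genes had one (Slc25a20, Echs1 and Etfa) and 0 of 6 peroxisomal genes did. The single hexamer AGGTCA, which the full motif contains, was present in 16.3% of all promoters, in 3 of 15 mitochondrial and in 0 of 6 peroxisomal ones. A match describes letters in these windows and is not a bound site.

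**Figure D1:**
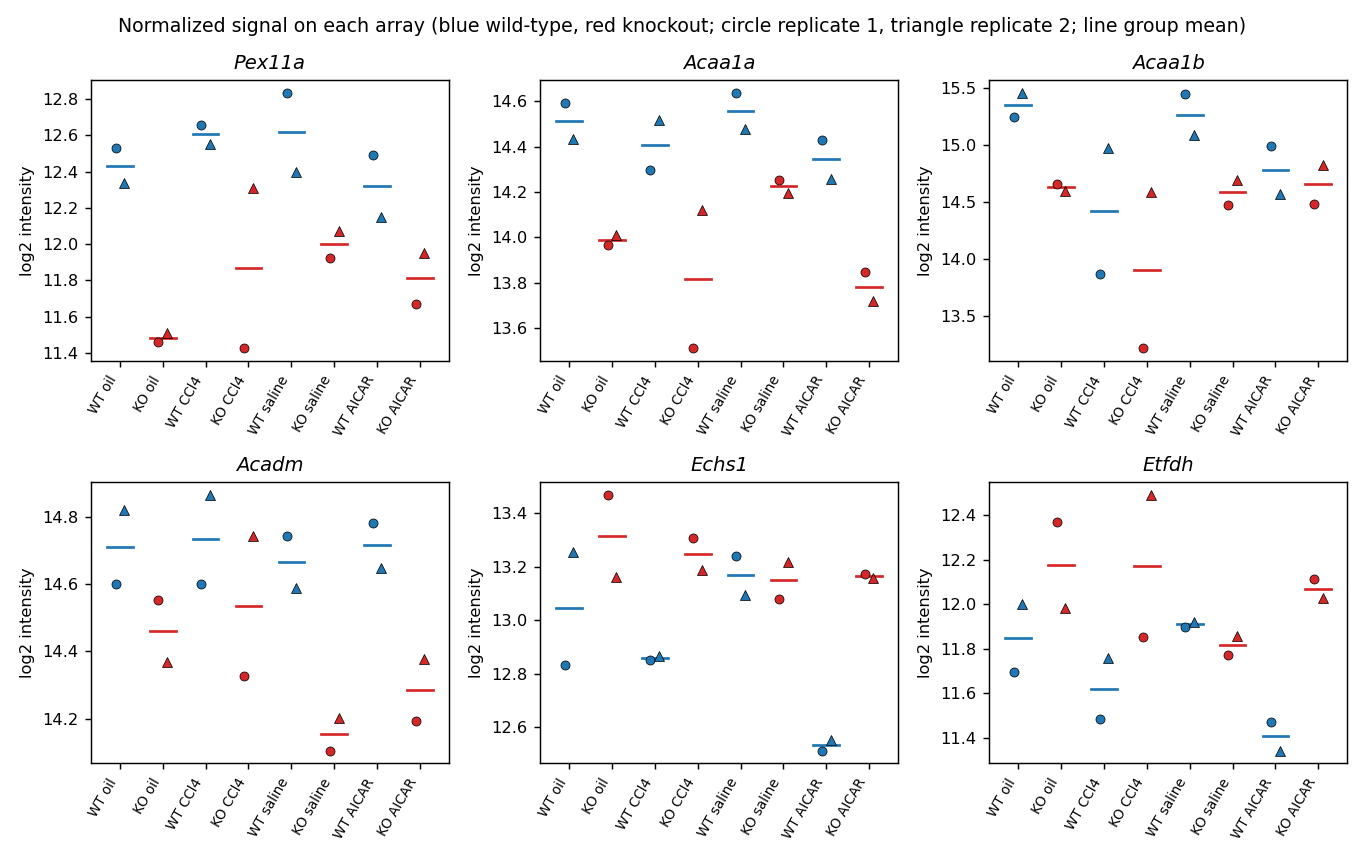
Log2 intensity (vertical axes) of Pex11a, Acaa1a, Acaa1b, Acadm, Echs1 and Etfdh on each array of the 8 groups (horizontal axes), with circles for replicate 1, triangles for replicate 2 and lines for group means. For Pex11a and Acaa1a the red knockout points lie below the blue wild-type points under each agent, and for Echs1 the wild-type AICAR points, at 12.51 and 12.55, are the lowest of 16.

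Other peroxisomal members had lower estimates that were not called. Acaa1b in the wild-type was 15.25 and 15.46 with oil, 15.45 and 15.09 with saline, 13.87 and 14.97 with CCl4 and 14.997 and 14.57 with AICAR. In the knockout, Acaa1b was 14.66 and 14.60 with oil, 14.48 and 14.69 with saline, 13.22 and 14.59 with CCl4 and 14.48 and 14.83 with AICAR. Both knockout arrays of Acaa1b were below both wild-type arrays with oil. The same held with saline, where the knockout arrays stand for 1 sample. For Acaa1b the genotypes overlapped after CCl4 and after AICAR. Its difference over all 4 agents was -0.51 ± 0.23, adjusted p 0.201, and without knockout CCl4 replicate 2 it was -0.69 with an adjusted p of 0.0476. Hsd17b4, the D-bifunctional enzyme that handles branched and very long-chain substrates, spanned 13.75 to 14.37 in wild-type and 13.60 to 14.09 in knockout arrays, and its difference was -0.22 ± 0.10, adjusted p 0.224.

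Eci2 in the wild-type was 11.87 and 11.87 with oil, 11.66 and 11.47 with saline, 11.71 and 11.67 with CCl4 and 11.61 and 11.25 with AICAR. In the knockout, Eci2 was 11.32 and 10.99 with oil, 11.52 and 11.74 with saline, 10.91 and 11.60 with CCl4 and 11.23 and 11.77 with AICAR. Eci2, an enoyl-CoA isomerase for unsaturated fatty acids, was lower on both knockout arrays than on both wild-type arrays with oil and after CCl4, and the genotypes overlapped with saline and after AICAR. Ehhadh in the wild-type was 10.85 and 10.98 with oil, 10.34 and 10.63 with saline, 9.91 and 10.75 with CCl4 and 11.45 and 10.69 with AICAR. In the knockout, Ehhadh was 10.88 and 10.76 with oil, 10.28 and 10.39 with saline, 9.29 and 11.56 with CCl4 and 9.96 and 10.62 with AICAR. Ehhadh, the L-bifunctional enzyme, showed no separation of the genotypes in any group but AICAR, and its highest and lowest values of all were the 2 knockout CCl4 arrays. Decr2 in the wild-type was 9.66 and 10.21 with oil, 10.41 and 10.20 with saline, 9.54 and 9.76 with CCl4 and 9.85 and 9.67 with AICAR. In the knockout, Decr2 was 9.84 and 10.29 with oil, 9.83 and 9.57 with saline, 9.61 and 10.03 with CCl4 and 9.98 and 9.99 with AICAR. Decr2, a dienoyl-CoA reductase, was lower on the knockout arrays with saline and higher on them after AICAR. Over all 4 agents these 3 genes differed by -0.26 ± 0.14, adjusted p 0.304, -0.23 ± 0.31, adjusted p 0.708 and -0.02 ± 0.13, adjusted p 0.945.

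Set against each gene's own mean over the 16 arrays, the median peroxisomal member minus the median mitochondrial member ranged from 0.11 to 0.41 on the 8 wild-type arrays, with a median of 0.26. On the 8 knockout arrays the same quantity ranged from -0.67 to 0.07, with a median of -0.16. The saline arrays among them, at -0.17 and -0.21, stand for 1 sample and set neither end of that range. The genotypes did not overlap in this balance of compartments, although they overlapped in each compartment by itself, with peroxisomal medians of -0.13 to 0.43 in wild-type and -0.69 to 0.09 in knockout arrays. Mitochondrial medians spanned -0.26 to 0.16 and -0.14 to 0.21. The separation of the balance was lost with median centring (lowest wild-type 0.06, highest knockout 0.07) and with no probe filter (0.08 and 0.12). The quantity was built after the comparisons had been seen and was given no test.

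**Figure D2:**
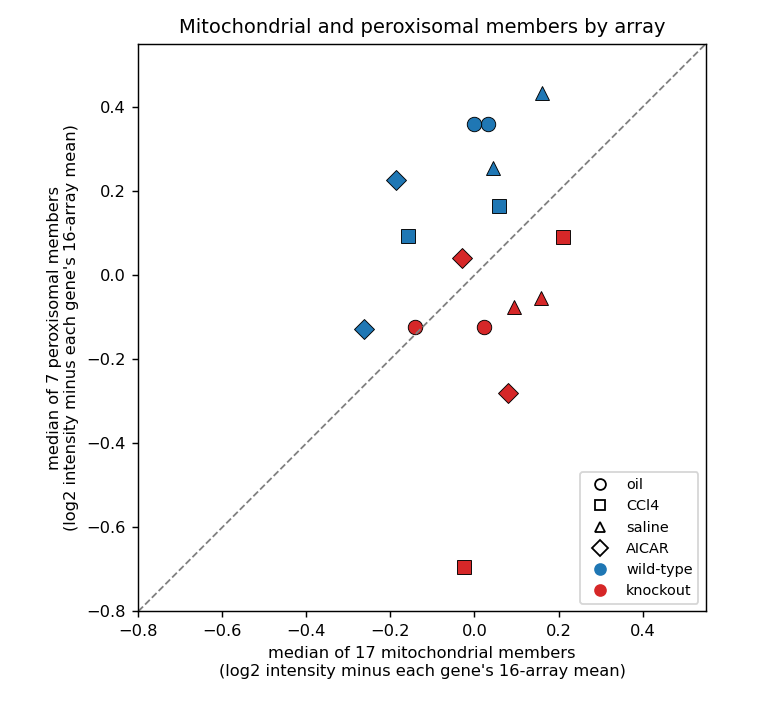
Median of the 7 peroxisomal members (vertical axis) against the median of the 17 mitochondrial members (horizontal axis) on each of 16 arrays, both as log2 intensity minus each gene's mean over the arrays, with symbols for agents, blue for wild-type and red for knockout. Equal medians would fall on the dashed line; the wild-type arrays lie above it by 0.11 to 0.41, and the knockout arrays at distances from -0.67 to 0.07.

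Under single agents the genotype difference was called for 0 of 28 members in each case. With oil, where 1.24% of all features were called, 0 members were higher and 6 lower at an unadjusted limma p under 0.05, against 7.34% higher and 8.35% lower among all features. The 3 smallest p-values there belonged to Pex11a (-0.95 ± 0.28, adjusted p 0.145), Eci2 (-0.71 ± 0.27, adjusted p 0.236) and Acsl5 (-0.48 ± 0.20, adjusted p 0.279). With saline, where 0.132% of features were called and the knockout counted as 1 sample, 0 members passed the unadjusted threshold, against 4.77% of features. The smallest p-values were those of Acadm (-0.51 ± 0.25, adjusted p 1), Decr2 (-0.61 ± 0.30, adjusted p 1) and Pex11a (-0.62 ± 0.35, adjusted p 1). Over both vehicles, where 1.32% of features were called and again 0 of 28 members, 0 members were higher and 3 lower at the unadjusted threshold by limma, against 6.13% and 6.26% of features. Pex11a (-0.78 ± 0.22, adjusted p 0.146), Acaa1a (-0.43 ± 0.17, adjusted p 0.331) and Acadm (-0.38 ± 0.16, adjusted p 0.366) led that comparison.

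After CCl4, where 1.29% of features were called, 0 members were called, and at the unadjusted limma threshold 1 was higher and 2 lower, against 5.79% and 5.89% of features. Acaa1a (-0.59 ± 0.22, adjusted p 0.287), Pex11a (-0.74 ± 0.28, adjusted p 0.313) and Etfdh (0.55 ± 0.24, adjusted p 0.403) had the smallest p-values. After AICAR, where 7.53% of features were called, again 0 members were called, and at the unadjusted limma threshold 2 were higher and 1 lower, against 11% and 12.9% of features. Echs1 (0.63 ± 0.19, adjusted p 0.0734), Etfdh (0.66 ± 0.24, adjusted p 0.121) and Acaa1a (-0.56 ± 0.22, adjusted p 0.143) led. The median peroxisomal difference was -0.53 with oil, -0.33 with saline, -0.44 after CCl4 and -0.13 after AICAR, and the mitochondrial medians were -0.08, -0.02, -0.09 and 0.28. The peroxisomal median was thus below the mitochondrial one under every agent, and after AICAR the mitochondrial median was above 0. Between replicates of a group, the median of an array had a pooled standard deviation of 0.25 for the peroxisomal and 0.11 for the mitochondrial members.

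Lower estimates under all 4 agents were seen for 4 of 7 peroxisomal members (Acaa1a, Acaa1b, Hsd17b4 and Pex11a, 57.1%) and 3 of 17 mitochondrial members (Acadm, Hadhb and Pdk4, 17.6%). The same held for 2 of 4 members of other or several places (Acsl5 and Cyp4a14, 50%) and for 14.5% of all features. The Acaa1b estimate turned above 0 after AICAR with median centring and in 2 fits without 1 array, and after CCl4 in 2 such fits. Higher estimates under all 4 were seen for 3 mitochondrial members (Cpt2, Acadl and Acads), 0 peroxisomal members and 0 of other or several places, and for 12.5% of all features. Over all 4 agents together, 2 of 28 members were called as given above. At the unadjusted threshold 3 members were higher and 5 lower, against 11.2% and 13.3% of features. Of the 2 calls, 0 were mitochondrial by limma, and 3 mitochondrial members were higher and 1 lower at the unadjusted threshold. For 16 of 17 mitochondrial members the 95% confidence interval of the genotype difference lay within 1 log2 unit of 0, Pdk4 being the exception.

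**Figure D3:**
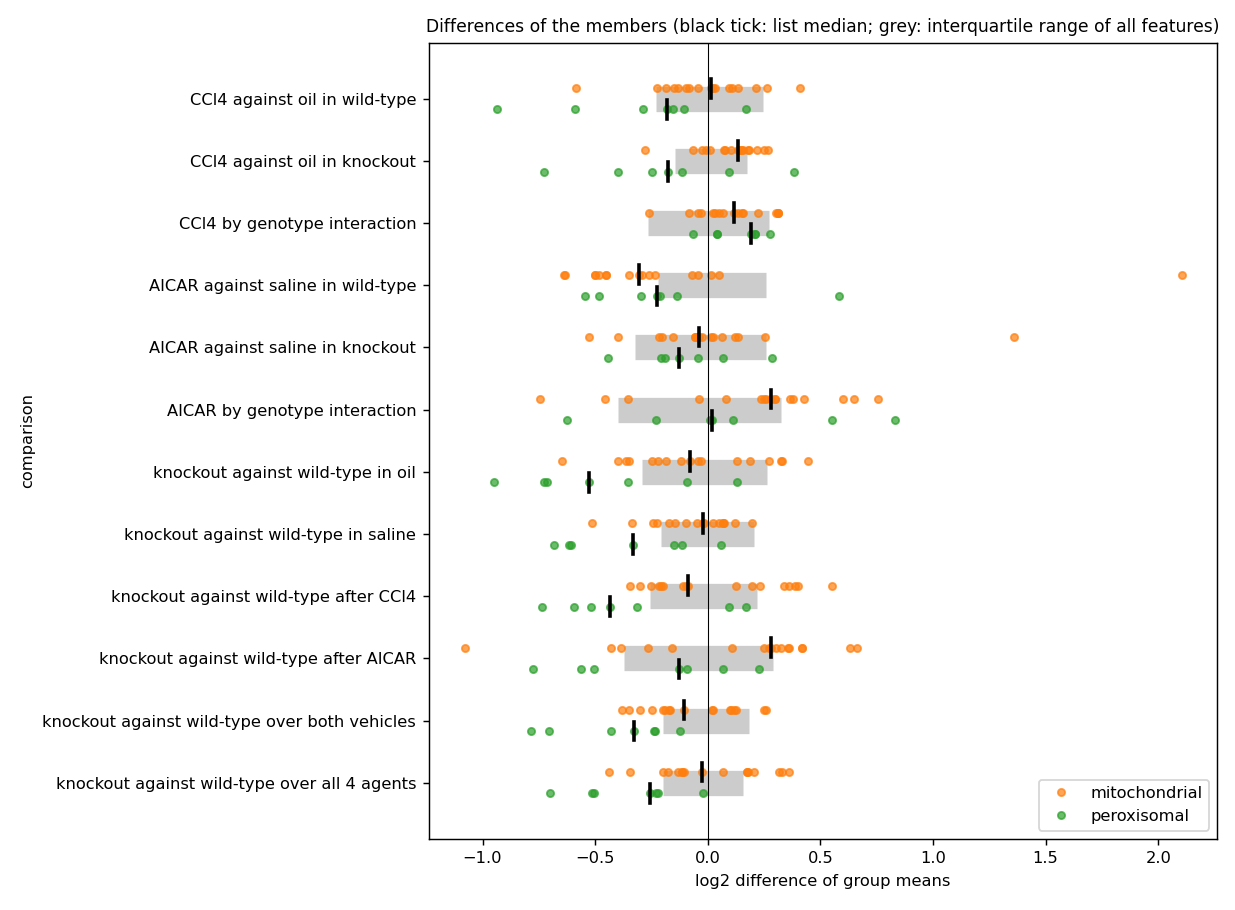
Log2 difference of group means (horizontal axis) of each of the 17 mitochondrial (orange) and 7 peroxisomal (green) members in 12 comparisons (vertical axis), with a black tick at each list's median and a grey band over the interquartile range of all 11338 features. In the genotype rows the peroxisomal medians lie from -0.53 to -0.13; the mitochondrial medians lie from -0.10 to 0.28, and Pdk4 stands apart after AICAR at 2.10 in wild-type.

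Members of the mitochondrial pathway are described in the order in which a fatty acid meets them, with the values over all 4 agents. Slc27a2, a fatty acid transporter and acyl-CoA synthetase, and Acsl5, a long-chain acyl-CoA synthetase, activate fatty acids before they enter. Acsl5 in the wild-type was 14.18 and 14.51 with oil, 13.96 and 14.18 with saline, 14.08 and 14.35 with CCl4 and 14.14 and 14.06 with AICAR. In the knockout, Acsl5 was 13.82 and 13.91 with oil, 13.93 and 13.81 with saline, 13.72 and 13.98 with CCl4 and 13.75 and 13.99 with AICAR. Both knockout arrays were below both wild-type arrays under each agent, and across agents the knockout range of 13.72 to 13.99 met the wild-type range of 13.96 to 14.51. The Acsl5 difference was -0.32 ± 0.11, adjusted p 0.0888, and it passed the threshold in 5 of 26 alternatives. Slc27a2 in the wild-type was 13.66 and 14.22 with oil, 14.10 and 13.76 with saline, 13.52 and 13.42 with CCl4 and 13.92 and 13.65 with AICAR. In the knockout, Slc27a2 was 13.85 and 13.48 with oil, 13.64 and 13.66 with saline, 13.66 and 13.68 with CCl4 and 13.58 and 13.74 with AICAR. Slc27a2 was lower on the knockout arrays with saline, higher on them after CCl4 and overlapped with oil and AICAR, and over all 4 agents it differed by -0.12 ± 0.12, adjusted p 0.601.

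In the carnitine system Slc25a20, which carries acylcarnitines across the inner membrane, ranged from 12.24 to 13.00 over the 16 arrays, and Cpt2, which returns them to acyl-CoA, from 11.83 to 12.69. Their differences between genotypes were -0.13 ± 0.12, adjusted p 0.556 and 0.21 ± 0.12, adjusted p 0.332. Crat in the wild-type was 8.88 and 8.74 with oil, 8.69 and 8.55 with saline, 9.74 and 9.10 with CCl4 and 8.79 and 8.35 with AICAR. In the knockout, Crat was 9.61 and 8.97 with oil, 8.92 and 8.87 with saline, 9.42 and 9.84 with CCl4 and 8.43 and 8.54 with AICAR. Crat, the carnitine acetyltransferase, was higher on both CCl4 arrays of the wild-type than on their oil controls, and the knockout CCl4 and oil arrays overlapped. It differed between genotypes by 0.22 ± 0.15, adjusted p 0.402.

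Among the acyl-CoA dehydrogenases, which open each round for chains of a given length, Acadm, the medium-chain enzyme, had the smallest adjusted p between genotypes. Acadm in the wild-type was 14.60 and 14.82 with oil, 14.74 and 14.59 with saline, 14.60 and 14.86 with CCl4 and 14.78 and 14.65 with AICAR. In the knockout, Acadm was 14.55 and 14.37 with oil, 14.10 and 14.20 with saline, 14.33 and 14.74 with CCl4 and 14.19 and 14.38 with AICAR. Both knockout arrays were below both wild-type arrays with oil, saline and AICAR, while after CCl4 knockout replicate 2 lay between the wild-type arrays. The difference was -0.35 ± 0.11, adjusted p 0.0738, and it passed the threshold in 6 of 26 alternatives. Acadl, the long-chain enzyme, was 9.62 to 10.33 in wild-type and 10.11 to 10.76 in knockout arrays, a difference of 0.33 ± 0.13, adjusted p 0.149. Acads, the short-chain enzyme, and Acadvl, the very long-chain enzyme, differed by 0.17 ± 0.10, adjusted p 0.336 and -0.02 ± 0.10, adjusted p 0.912. Acadvl in the wild-type was 13.23 and 13.38 with oil, 12.997 and 13.02 with saline, 13.29 and 13.23 with CCl4 and 12.89 and 12.67 with AICAR. In the knockout, Acadvl was 13.07 and 12.74 with oil, 13.06 and 13.10 with saline, 13.21 and 13.14 with CCl4 and 13.16 and 13.05 with AICAR. The Acadvl values of the knockout were lower than those of the wild-type with oil and CCl4 and higher with saline and AICAR.

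Of the enzymes of the later steps, Echs1, the short-chain enoyl-CoA hydratase, had a higher estimate in the knockout. Echs1 in the wild-type was 12.83 and 13.25 with oil, 13.24 and 13.09 with saline, 12.85 and 12.87 with CCl4 and 12.51 and 12.55 with AICAR. In the knockout, Echs1 was 13.47 and 13.16 with oil, 13.08 and 13.22 with saline, 13.31 and 13.19 with CCl4 and 13.17 and 13.16 with AICAR. The wild-type values after AICAR were the 2 lowest, and the knockout arrays were above both wild-type arrays after CCl4 and AICAR but not with oil or saline. Echs1 differed by 0.32 ± 0.10, adjusted p 0.0823 over all 4 agents, called in 6 of 26 alternatives, and after AICAR it was called in 5 of 15 alternatives, with adjusted p between 0.0301 and 0.267.

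Hadh in the wild-type was 8.51 and 9.39 with oil, 8.73 and 8.83 with saline, 8.21 and 8.53 with CCl4 and 8.48 and 8.17 with AICAR. In the knockout, Hadh was 8.37 and 8.23 with oil, 8.65 and 8.81 with saline, 7.93 and 8.12 with CCl4 and 8.36 and 8.79 with AICAR. Hadh, the short-chain hydroxyacyl-CoA dehydrogenase, was lower on the knockout arrays with oil and CCl4, and over all 4 agents it differed by -0.20 ± 0.15, adjusted p 0.471. Acaa2 in the wild-type was 13.74 and 13.76 with oil, 14.16 and 14.15 with saline, 13.46 and 13.87 with CCl4 and 13.52 and 13.52 with AICAR. In the knockout, Acaa2 was 13.32 and 13.45 with oil, 13.89 and 13.94 with saline, 13.44 and 13.48 with CCl4 and 13.996 and 13.76 with AICAR. Acaa2, the mitochondrial thiolase, was higher with saline than with any other agent in the wild-type, and over all 4 agents it differed by -0.11 ± 0.10, adjusted p 0.532. Hadhb, a subunit of the trifunctional protein, Eci1, an isomerase, and Decr1, a dienoyl-CoA reductase, differed by -0.18 ± 0.12, adjusted p 0.412, -0.11 ± 0.15, adjusted p 0.703 and 0.17 ± 0.12, adjusted p 0.431.

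Electrons from the dehydrogenases pass through Etfa and Etfb to Etfdh, the oxidoreductase that hands them to ubiquinone, and all 3 genes had higher estimates in the knockout. Etfdh in the wild-type was 11.70 and 11.9998 with oil, 11.90 and 11.92 with saline, 11.49 and 11.76 with CCl4 and 11.47 and 11.34 with AICAR. In the knockout, Etfdh was 12.37 and 11.98 with oil, 11.77 and 11.86 with saline, 11.85 and 12.49 with CCl4 and 12.11 and 12.03 with AICAR. Both knockout arrays were above both wild-type arrays after CCl4 and after AICAR, and the reverse held with saline. The difference over all 4 agents was 0.36 ± 0.13, adjusted p 0.108, and 0.44 without knockout CCl4 replicate 1. Another Etfdh probe, with a mean log2 intensity of 6.62, gave 0.85 for CCl4 against oil in knockout, against -0.01 with the probe used. For the CCl4 interaction it gave 1.25, against 0.22. Etfa in the wild-type was 14.63 and 14.65 with oil, 14.75 and 14.60 with saline, 14.64 and 14.34 with CCl4 and 14.30 and 14.53 with AICAR. In the knockout, Etfa was 14.59 and 14.32 with oil, 14.68 and 14.63 with saline, 14.65 and 14.58 with CCl4 and 14.87 and 14.68 with AICAR. Etfa was lower on the knockout arrays with oil and higher on them after AICAR. Etfb in the wild-type was 14.49 and 14.19 with oil, 14.62 and 14.59 with saline, 14.50 and 14.60 with CCl4 and 14.50 and 14.62 with AICAR. In the knockout, Etfb was 14.66 and 14.66 with oil, 14.71 and 14.89 with saline, 14.92 and 14.90 with CCl4 and 14.52 and 14.28 with AICAR. Etfb was higher on both knockout arrays with oil, CCl4 and saline. Etfa and Etfb differed by 0.07 ± 0.10, adjusted p 0.729 and 0.18 ± 0.09, adjusted p 0.269.

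Bdh1, which interconverts acetoacetate and 3-hydroxybutyrate, was the only ketone body enzyme measured among the members. Bdh1 in the wild-type was 12.62 and 12.38 with oil, 12.63 and 12.77 with saline, 12.30 and 12.73 with CCl4 and 12.09 and 12.35 with AICAR. In the knockout, Bdh1 was 12.25 and 12.05 with oil, 12.60 and 12.52 with saline, 12.41 and 12.18 with CCl4 and 12.33 and 12.67 with AICAR. Its knockout values were lower with oil and with saline and overlapped the wild-type after CCl4 and AICAR. Bdh1 differed between genotypes by -0.11 ± 0.12, adjusted p 0.627, with a 95% confidence interval of -0.36 to 0.15.

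**Figure D4:**
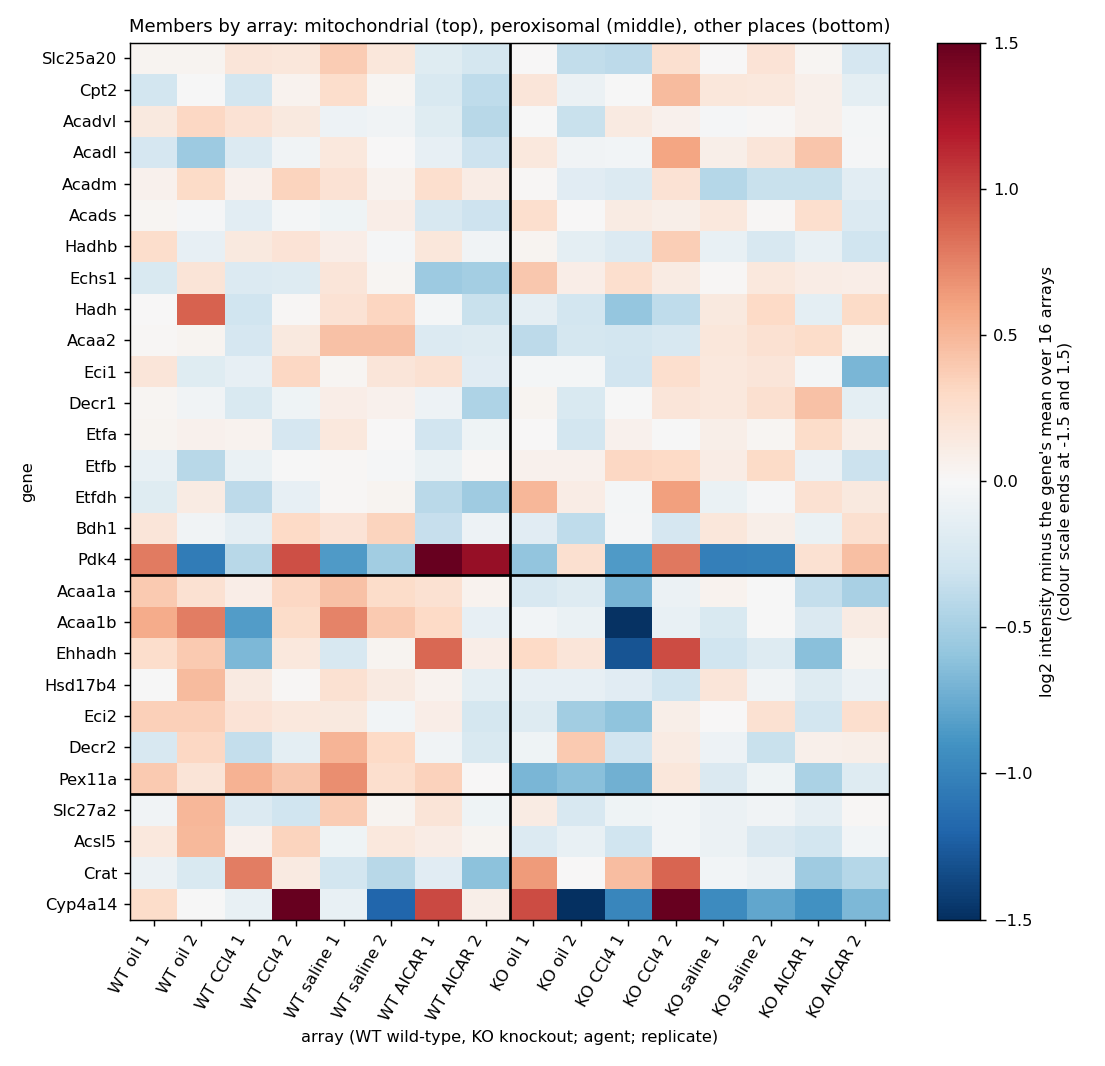
Log2 intensity of each of the 28 measured members (rows) on each of 16 arrays (columns, 8 wild-type then 8 knockout), as the difference from the gene's own mean, with a colour scale that ends at -1.5 and 1.5. The peroxisomal rows Acaa1a and Pex11a are mostly red in wild-type and mostly blue in knockout columns. Knockout saline replicate 1 for Acaa1a and knockout CCl4 replicate 2 for Pex11a lie above the gene's mean. Pdk4 and Cyp4a14 vary most from array to array.

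AICAR activates AMPK in the cell, and its effect was compared with saline in each genotype. Of 28 members, 0 were called in the wild-type, where 0.00882% of features were called, and at the unadjusted limma threshold 1 was higher and 3 lower, against 5.6% and 5.07% of all features. In the wild-type 22 of 28 members had a lower estimate after AICAR, among them 14 of 17 mitochondrial members, with a mitochondrial median of -0.30 and a peroxisomal median of -0.23. For comparison, 47.7% of all features were lower, with a median of 0.02. In the knockout 0 of 28 were called by limma, where 1.2% of features were, 0 passed the unadjusted threshold against 12.2% of features, and 17 had a lower estimate, with medians of -0.04 and -0.13.

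Pdk4, the kinase that shuts off pyruvate dehydrogenase and so spares glucose when fat is burned, had a higher estimate after AICAR, unlike most members. Pdk4 in the wild-type was 8.95 and 7.13 with oil, 7.33 and 7.66 with saline, 7.76 and 9.14 with CCl4 and 9.72 and 9.48 with AICAR. In the knockout, Pdk4 was 7.59 and 8.41 with oil, 7.16 and 7.16 with saline, 7.32 and 8.97 with CCl4 and 8.41 and 8.63 with AICAR. Both AICAR arrays were above both saline arrays in each genotype, and the wild-type AICAR values were the 2 highest of 16. Elsewhere the replicates were as far apart as the groups, with wild-type oil arrays that differed by 1.82. The AICAR difference was 2.10 ± 0.66, adjusted p 0.321 in wild-type, with a 95% confidence interval of 0.65 to 3.56, and 1.36 ± 0.81, adjusted p 0.563 in knockout, and neither was called. The difference between those effects was -0.74 ± 1.04, adjusted p 0.872.

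Acaa2 and Echs1, whose values are given above, had the smallest p-values with Pdk4 in the wild-type, at -0.64 ± 0.18, adjusted p 0.305 and -0.63 ± 0.19, adjusted p 0.314. For both genes the wild-type AICAR arrays were below the wild-type saline arrays, and in the knockout they overlapped. The other Acaa2 probes gave -0.50, -0.40 and -0.19 for AICAR in wild-type. For the AICAR interaction they gave 0.41, 0.35 and 0.07, against 0.60 with the probe used. In the knockout, Etfb (-0.40 ± 0.22, adjusted p 0.517), Pdk4 and Acaa1a (-0.44 ± 0.27, adjusted p 0.566) led. The AICAR effect was not called as different between genotypes for any of the 28 members by limma, where 0.3% of features were called, and 0 passed the unadjusted threshold, as 9.16% of features did. Decr2 (0.83 ± 0.39, adjusted p 0.555), Echs1 (0.65 ± 0.31, adjusted p 0.56) and Acaa2 (0.60 ± 0.29, adjusted p 0.576) had the smallest p-values, and 13 of 17 mitochondrial members had a positive interaction estimate, with a median of 0.28. The wild-type saline and AICAR arrays enter both the effect in wild-type and the interaction, so these values are not independent.

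CCl4 was compared with oil in the same way. In the wild-type 0 of 28 members were called by limma, 0 passed the unadjusted threshold, and 0% of all features were called, although 9.33% passed the unadjusted threshold. Crat (0.61 ± 0.28, adjusted p 0.542), Acaa1b (-0.94 ± 0.44, adjusted p 0.545) and Hadh (-0.58 ± 0.28, adjusted p 0.561) had the smallest p-values. In the knockout 0 of 28 members and 0% of features were called, and 0 members passed the unadjusted threshold, against 3.55% of features. Acaa1b (-0.73 ± 0.44, adjusted p 1), Acadvl (0.27 ± 0.18, adjusted p 1) and Etfb (0.25 ± 0.18, adjusted p 1) led there. For the interaction 0 of 28 members and 0% of features were called, with 0 members and 4.08% of features at the unadjusted limma threshold, and Slc27a2 (0.48 ± 0.33, adjusted p 0.997), Acadvl (0.31 ± 0.25, adjusted p 0.997) and Etfa (0.31 ± 0.27, adjusted p 0.997) had the smallest p-values.

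Several PPARA target genes differed widely between replicates, in the CCl4 groups and in others. Cyp4a14 in the wild-type was 7.20 and 6.93 with oil, 6.82 and 5.75 with saline, 6.82 and 9.78 with CCl4 and 7.92 and 7.02 with AICAR. In the knockout, Cyp4a14 was 7.91 and 5.17 with oil, 5.99 and 6.15 with saline, 5.96 and 9.23 with CCl4 and 6.03 and 6.26 with AICAR. Cyp4a14, a microsomal enzyme that oxidises fatty acids at the omega end, stood at its 2 highest values on replicate 2 of both CCl4 groups, while replicate 1 lay below both oil arrays in the wild-type and between them in the knockout. Its estimates after CCl4 were 1.23 ± 1.17, adjusted p 0.769 in wild-type and 1.05 ± 1.17, adjusted p 1 in knockout. Without wild-type CCl4 replicate 2 the first was -0.25, and without knockout CCl4 replicate 2 or knockout oil replicate 2 the second was -0.58 or -0.32.

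Replicates 1 and 2 differed by at least 1 log2 unit for 4 of 28 members in the knockout CCl4 group, where 8.59% of all features did, and for 3 of 28 in the wild-type CCl4 group, where 3.29% did. In the knockout these were Cyp4a14 (3.27 apart), Ehhadh (2.27), Pdk4 (1.65) and Acaa1b (1.38), and in the wild-type Cyp4a14 (2.96), Pdk4 (1.38) and Acaa1b (1.11), in each case with replicate 2 the higher. In the other groups 1 member did so with wild-type oil (Pdk4, 9.31% of features), 1 with knockout oil (Cyp4a14, 7.66%) and 1 with wild-type saline (Cyp4a14, 2.52%), and 0 in the remaining 3 groups (0.953% with knockout saline, 2.1% with wild-type AICAR and 4.76% with knockout AICAR). The estimate of Ehhadh after CCl4 in the knockout turned from -0.40 to 0.74 without knockout CCl4 replicate 1. Between knockout CCl4 replicates 1 and 2 the mean of 4 Kupffer cell markers was 10.24 and 11.11, that of 5 neutrophil markers 7.70 and 8.64, that of 7 stellate cell markers 9.03 and 9.53 and that of 5 hepatocyte markers 13.64 and 13.44. Between wild-type CCl4 replicates 1 and 2 the Kupffer cell mean was 10.80 and 10.51, the neutrophil mean 7.90 and 8.79, the stellate cell mean 9.12 and 9.77 and the hepatocyte mean 13.55 and 13.24. For 3 T and B cell markers the means were 7.21 and 7.46 in the knockout and 6.83 and 7.94 in the wild-type. For 2 cholangiocyte markers they were 7.11 and 6.53, then 7.19 and 7.04. For 6 sinusoidal endothelial markers they were 8.78 and 9.13, then 9.40 and 9.21. For 2 adipocyte markers they were 6.29 and 6.79, then 6.51 and 6.28. The part of these cell types in the replicate gaps was not tested.

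**Figure D5:**
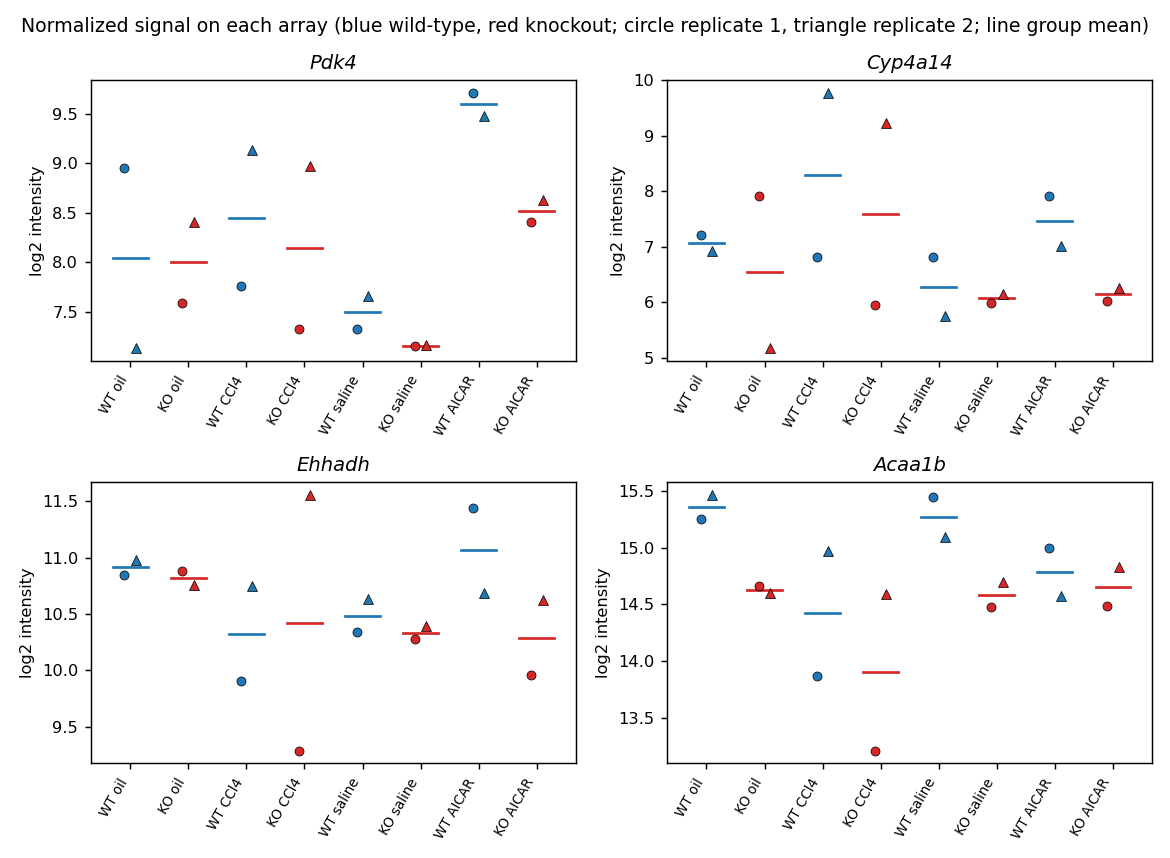
Log2 intensity (vertical axes) of Pdk4, Cyp4a14, Ehhadh and Acaa1b on each array of the 8 groups (horizontal axes), with blue for wild-type, red for knockout, circles for replicate 1, triangles for replicate 2 and lines for group means. In both CCl4 groups the triangle lies above the circle for each of the 4 genes, and for Cyp4a14 by 2.96 and 3.27 log2 units.

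The 2 vehicles were compared over both genotypes, and 0 of 28 members were called by limma, as were 0% of features, with 0 members higher and 1 lower at the unadjusted threshold, against 6.01% and 4.37% of features. Acaa2 (-0.47 ± 0.15, adjusted p 0.309), Bdh1 (-0.30 ± 0.17, adjusted p 0.588) and Pex11a (-0.35 ± 0.22, adjusted p 0.642) had the smallest p-values, each lower with oil. Of 3 other Acaa2 probes, 2 gave -0.39 and -0.36 in that comparison and 1 gave 0.13.

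Beyond the members, 68 further genes of the pathway were listed, of which 60 had a probe and 57 were measured. Over all 4 agents 12 of these were called (21.1%, against 9.26% of all features), 8 higher and 4 lower in the knockout. The list was chosen with earlier results of these data known, and that comparison was added after the data had been seen. The share is therefore no test of the pathway. The regulator Ppargc1a, a coactivator that raises mitochondrial gene expression, was higher. Ppargc1a in the wild-type was 5.79 and 7.67 with oil, 7.34 and 5.11 with saline, 6.09 and 6.40 with CCl4 and 5.49 and 6.53 with AICAR. In the knockout, Ppargc1a was 8.57 and 8.34 with oil, 8.95 and 8.83 with saline, 9.12 and 9.05 with CCl4 and 9.01 and 9.37 with AICAR. Every knockout array was above every wild-type array, although 1 wild-type saline and 1 wild-type AICAR array did not detect the probe. The difference was 2.60 ± 0.37, adjusted p 0.00158, and 1.47 with no background correction. Ppara itself spanned 7.03 to 7.69 in wild-type and 5.99 to 8.30 in knockout arrays and differed by -0.70 ± 0.22, adjusted p 0.0789, and passed the threshold in 4 of 26 alternatives, with differences of -0.88 to -0.31 over all 26 and adjusted p down to 0.0136 (-0.88, without knockout AICAR replicate 2).

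Among peroxisomal genes outside the members, several rose in the knockout, unlike Pex11a and Acaa1a. Nudt19 in the wild-type was 11.34 and 11.16 with oil, 11.33 and 11.33 with saline, 11.32 and 11.63 with CCl4 and 11.18 and 11.26 with AICAR. In the knockout, Nudt19 was 12.75 and 13.22 with oil, 11.96 and 11.94 with saline, 12.55 and 12.57 with CCl4 and 11.95 and 11.95 with AICAR. Nudt19, a peroxisomal enzyme that breaks down coenzyme A, was above every wild-type array on every knockout array and rose by 1.04 ± 0.11, adjusted p 0.00018. Pxmp2 in the wild-type was 11.37 and 11.38 with oil, 11.68 and 11.87 with saline, 10.80 and 10.998 with CCl4 and 11.23 and 11.11 with AICAR. In the knockout, Pxmp2 was 12.36 and 12.17 with oil, 11.90 and 11.97 with saline, 11.93 and 12.14 with CCl4 and 11.72 and 11.44 with AICAR. Pxmp2, a channel protein of the peroxisomal membrane, rose by 0.65 ± 0.10, adjusted p 0.00239, with no overlap between genotypes under any single agent. Hacl1, the lyase of alpha-oxidation, and Acot3, a thioesterase, rose by 0.84 ± 0.13, adjusted p 0.00264 and 1.08 ± 0.25, adjusted p 0.0231, while Acox3, an oxidase of branched chains, fell with a difference of -0.47 ± 0.11, adjusted p 0.0292. The Acot3 call was lost without wild-type CCl4 replicate 1 (1.05, adjusted p 0.0512), wild-type saline replicate 2 (0.98, 0.0568) or wild-type AICAR replicate 2 (0.97, 0.0565). The Acox3 call was lost with the mean of all its kept probes (-0.30, adjusted p 0.123) and in 7 of 16 fits that left out 1 array, with differences of -0.48 to -0.41 and adjusted p up to 0.0738. The arrays left out were knockout oil replicate 1, wild-type CCl4 replicate 2, knockout CCl4 replicate 1, both wild-type saline replicates, wild-type AICAR replicate 2 and knockout AICAR replicate 2.

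The other calls over all 4 agents were Slc22a5, the carnitine importer (0.62 ± 0.13, adjusted p 0.0152), Acsl4, a synthetase that prefers arachidonate (0.79 ± 0.13, adjusted p 0.00426), Acsm5, a medium-chain synthetase (-0.85 ± 0.15, adjusted p 0.00498), and Cyp4a12a and Cyp4a12b, omega-hydroxylases typical of male mouse liver (-1.12 ± 0.17, adjusted p 0.00214 and -2.40 ± 0.52, adjusted p 0.016). The Cyp4a12 genes are closely related copies whose probes may share signal. Cyp4a12b stood at 7.83 and 12.11 on knockout CCl4 replicates 1 and 2. Fgf21, a liver hormone that PPARA raises in fasting, completed the list. Fgf21 in the wild-type was 7.34 and 5.30 with oil, 7.02 and 7.30 with saline, 7.51 and 7.75 with CCl4 and 6.19 and 6.80 with AICAR. In the knockout, Fgf21 was 7.49 and 7.85 with oil, 7.76 and 7.73 with saline, 6.44 and 8.87 with CCl4 and 10.96 and 11.002 with AICAR. The 2 knockout AICAR arrays were the highest of 16 by more than 2 log2 units, the knockout was also the higher with oil and saline, and the genotypes overlapped after CCl4. The overall difference was 1.61 ± 0.38, adjusted p 0.0255, and 1.07 with no background correction. The call was lost in 6 of 16 fits that left out 1 array, with differences of 1.53 to 1.65 and adjusted p of 0.0502 to 0.0652. Those fits left out either wild-type CCl4 array, either wild-type saline array, wild-type AICAR replicate 1 or knockout AICAR replicate 1.

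Under single agents, 1 gene of the wider list was called with oil (Nudt19, 1.74 ± 0.20, adjusted p 0.00286), 0 of 57 with saline by limma (5 higher and 6 lower at the unadjusted threshold, against 2.5% and 2.28% of features, led by Acat1 and Acsl4) and 2 after CCl4 (Pxmp2, 1.14 ± 0.19, adjusted p 0.0171, and Nudt19, 1.09 ± 0.20, adjusted p 0.0263). These shares are 1 of 57 against 1.24% of features and 2 of 57 against 1.29%. Over both vehicles, where 1.32% of features were called, Nudt19 was called (1.18 ± 0.16, adjusted p 0.00404), and Cyp4a12a was next (-1.11 ± 0.25, adjusted p 0.0625). After AICAR 5 of 57 were called, all higher, 8.77% against 7.53% of features. These were Fgf21 (4.49 ± 0.72, adjusted p 0.00492), Hacl1 (1.14 ± 0.25, adjusted p 0.0202), Ppargc1a (3.18 ± 0.69, adjusted p 0.0212), Nudt19 (0.73 ± 0.20, adjusted p 0.0496) and Lpin1 (2.96 ± 0.80, adjusted p 0.0499). Without wild-type AICAR replicate 1 all 5 calls were lost, with adjusted p of 0.0525 for Fgf21, 0.12 for Hacl1, 0.156 for Ppargc1a, 0.223 for Nudt19 and 0.3 for Lpin1, and the last 4 were lost without any one of the other AICAR arrays as well. The calls after CCl4 were lost without either wild-type CCl4 array (adjusted p 0.137 and 0.0791 for Pxmp2, 0.207 and 0.0857 for Nudt19) and without knockout CCl4 replicate 2 (0.0779 and 0.0882), and that of Nudt19 also without knockout CCl4 replicate 1 (0.108). With only the compared groups fitted, the Nudt19 call was lost with oil (adjusted p 0.169), over both vehicles (0.0717), after CCl4 (0.204) and after AICAR (0.0708), and that of Pxmp2 after CCl4 (0.188). The Ppargc1a difference after AICAR was 1.82 with no background correction. After AICAR the Lpin1 call was also lost with no probe filter (limma adjusted p 0.0726) and with probe means (0.0504). Trended and robust variance (0.0691) and array weights (0.0587) lost it too. The Nudt19 call after AICAR was also lost with median centring (0.0594) and with probe means (0.0821).

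Neither agent called any of the 57 genes in either genotype by limma. Against saline, AICAR left 0 higher and 9 lower at the unadjusted threshold in wild-type, against 5.6% and 5.07% of features. Acat1 (-1.19 ± 0.28, adjusted p 0.211) and Bdh2 (-1.27 ± 0.33, adjusted p 0.255), both enzymes of ketone body metabolism, led there. In the knockout 3 were higher and 2 lower, against 7.07% and 5.14% of features, led by Pxmp4 (-1.22 ± 0.32, adjusted p 0.113) and Fgf21 (3.24 ± 0.88, adjusted p 0.128), which passed the threshold in 2 and 5 of 15 alternatives, with adjusted p down to 0.0159 and 0.011. Against oil, CCl4 left 0 higher and 8 lower in wild-type, against 5.19% and 4.14% of features, led by the hydroxylases Cyp4f15 (-1.08 ± 0.26, adjusted p 0.43) and Cyp4f14 (-1.10 ± 0.27, adjusted p 0.43). In the knockout, where 1.69% of features were higher and 1.86% lower, 1 gene stood on each side, Slc25a17 (2.60 ± 0.95, adjusted p 1), a peroxisomal cofactor carrier, and Acsm5 (-1.05 ± 0.28, adjusted p 0.957). The CCl4 interaction gave 1 higher and 1 lower, against 1.83% and 2.26% of features, Cyp4f14 (0.99 ± 0.38, adjusted p 0.997) and Nudt19 (-0.65 ± 0.28, adjusted p 0.997), and the AICAR interaction gave 4 higher and 0 lower, against 4.74% and 4.43%. The largest of the latter were Fgf21 (3.91 ± 1.14, adjusted p 0.278) and Acat1 (2.30 ± 0.44, adjusted p 0.0775), and the Acat1 interaction passed the threshold in 5 of 19 alternatives. These were array weights (adjusted p 0.0289), both knockout saline arrays as samples (0.0209) and the replicate block (0.033). The others were the fits without knockout saline replicate 2 (estimate 2.50) or knockout AICAR replicate 2 (2.72). Over the 19 alternatives the Acat1 interaction ran from 0.94 to 2.72. The Acat1 probe was detected on 15 arrays and stood at 5.50 and 5.89 on the knockout saline arrays. Oil against saline gave 2 higher and 1 lower, against 6.01% and 4.37% of features. Acat1 (1.01 ± 0.22, adjusted p 0.188) and Nudt19 (0.48 ± 0.16, adjusted p 0.327) were in front. The Acat1 difference there ran from 0.44 to 1.11 over the alternatives.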

How the data were processed

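Liver RNA had been hybridised as biotinylated cRNA to Illumina mouse arrays with 1 colour, per the labels' protocols. The deposited table holds a linear probe intensity, not normalized between arrays, for 25697 probes on 16 arrays, and the authors' detection p-value for each. The authors also deposited a table of normalized intensity by a method that the sources used here do not give; its ranks matched the raw signal on each array (rank correlation 1) and its column medians were 190.9 to 191.1. Per the submitters' processing notes, GenomeStudio was used.

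In R 4.3.3 with limma 3.58.1, intensities were corrected and quantile normalized by neqc (offset 16), which infers the negative controls here from detection p, and put on the log2 scale. A probe needed 2 arrays with detection p under 0.05, which 15411 passed, and taking the probe with the highest mean for each gene gave 11338 features. The platform table names 1 gene for 23978 probes and none for 1719. For 12 members with further kept probes, 35 of 234 differences read by those probes had the opposite sign to the probe used. Of these, 0 had an unadjusted limma p under 0.05 with both probes. Means of 8 groups were fitted over all samples with empirical Bayes moderation (7 residual and 3.76 prior degrees of freedom). The plan had 16 samples. The knockout saline arrays were averaged because they differed only by noise: across genes with 2 probes, the array difference read by one probe was unrelated to that read by the other (r = 0.011, 95% interval -0.034 to 0.056, over 1904 probe pairs, against at least 0.471 for 119 other array pairs). P-values are two-sided limma p-values adjusted over all features. The scripts were tested on simulated data.

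The 12 planned comparisons covered the agents within genotypes, both interactions, the genotypes within agents and pooled over vehicles, and oil against saline; the genotypes over all 4 agents were added after the data were seen. The members and lists were chosen with earlier results of these data known. Values on every array are given for called members, for the 3 smallest p-values of each comparison and for a set always named. From the wider list they are given for Ppargc1a, Nudt19, Pxmp2 and Fgf21 only. Same-numbered replicates did not pair consistently across groups: of 28 group pairs, 6 had deviations correlated above 0.1 and 5 below -0.1. The correlations ran from -0.401 (wild-type oil with knockout oil) to 0.484 (knockout oil with knockout CCl4). The main fit treats samples as independent, and whether arrays of different groups share a factor was not tested. Alternatives were other background corrections, centring, the authors' values, probe filters, probe means, variance models, array weights, the compared groups alone, a replicate block, all 16 arrays as samples and leaving out each array. The number of arrays limits the precision of each value.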

Additional observations from a re-analysis of the deposited data

How the results depend on the processing

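Counts of called members moved as follows. After AICAR, 1 member instead of 0 was called between genotypes with no background correction, the authors' values, trended and robust variance, array weights, only the groups compared, or both knockout saline arrays as samples. Over all 4 agents, 5 instead of 2 were called with no background correction, the authors' values, trended and robust variance, both knockout saline arrays as samples, or the replicate block, and 1 with median centring. Leaving out 1 array gave 1 to 4 there, with 1 without wild-type CCl4 replicate 2, wild-type saline replicate 1 or wild-type AICAR replicate 1, and 4 without knockout CCl4 replicate 2. Over both vehicles 1 was called with both knockout saline arrays as samples. Since the replicate numbers did not pair the samples consistently, the replicate block gives only a number. It moved the count over all 4 agents to 5 and that of all features from 1050 to 1553. Exchanging the numbers of 1 group (a crossed replicate block, added after the data were seen) gave 1 called member in oil. The count of all features over all 4 agents ran from 639 to 1615.

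With median centring the mitochondrial median between genotypes was 0.037 in oil, 0.094 after CCl4 and 0.029 over both vehicles. Leaving out 1 array gave mitochondrial medians of -0.21 to 0.049 in oil, -0.12 to 0.021 over both vehicles, -0.055 to 0.18 after CCl4 and 0.16 to 0.38 after AICAR. For CCl4 against oil they were -0.13 to 0.12 in wild-type and -0.057 to 0.27 in knockout, and for the interactions -0.013 to 0.27 (CCl4) and 0.15 to 0.36 (AICAR). Peroxisomal medians were -0.90 to -0.088 between genotypes after CCl4, -0.51 to -0.20 over all 4 agents, -0.45 to 0.13 for CCl4 in knockout, -0.23 to 0.62 for the CCl4 interaction and -0.33 to 0.14 for AICAR in knockout.

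Of the named genes, 3 turned direction. Acaa1b between genotypes after AICAR was 0.13 with median centring and -0.34 to 0.083 over fits without 1 array, above 0 without replicate 1 of either genotype. After CCl4 it was -1.21 to 0.17, above 0 without replicate 2 of the wild-type or replicate 1 of the knockout CCl4 arrays. Cyp4a14 after CCl4 was -0.25 to 2.71 in wild-type, below 0 without CCl4 replicate 2, and -0.58 to 2.69 in knockout, below 0 without CCl4 replicate 2 or oil replicate 2. Ehhadh after CCl4 in knockout was -1.53 to 0.74, above 0 without CCl4 replicate 1. Fewer samples are the construction of those fits, and the cause of the other changes was not tested. The 4 members whose probes were not above background are limited by signal.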
